A study of Mus musculus with 53 samples.

Results

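Messenger RNA of 10 keratin and ductular reaction genes was followed across whole mouse livers: Krt8, Krt18, Krt7, Krt19, Krt23, Epcam, Sox9, Cldn4, Ly6d and Sprr1a. They were 10 of the 36410 genes present in all 3 deposited count tables. The first 8 were chosen by name as genes of simple epithelium and bile ducts, with earlier results of these data known. Ly6d and Sprr1a were added because they rose strongly on a Western diet in these same libraries, so their diet values are given as a description, with no test.

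The study compared male C57BL/6J wild-type littermates with mice labelled as Bmp8b knockout in 3 experiments, using snap-frozen whole liver and 53 RNA libraries in 9 groups. In the diet experiment, mice given as 9 weeks old were fed for 32 weeks: 9 wild-type mice on a low fat control diet, 7 wild-type mice on a Western diet and 7 labelled knockout mice on the Western diet. In the toxin experiment, mice 16 weeks old were killed 3 days after an intraperitoneal injection of 2 ul per g body weight: 6 wild-type mice received olive oil, 4 wild-type mice received carbon tetrachloride (CCl4) mixed with olive oil, and 6 labelled knockout mice received that mix. In the surgery experiment, mice 16 weeks old underwent partial hepatectomy. Of the wild-type livers, 5 were from day 0, labelled as resected liver, and 5 were from day 3. The 4 labelled knockout livers were from day 3. A sham operation was not among the groups. No knockout group received the control diet, olive oil alone or a day 0 collection, and the labels do not describe the knockout allele. Reads on Bmp8b were present in the libraries labelled knockout, with 6 to 33 counts per library on the Western diet, 1 to 15 after CCl4 and 4 to 9 on day 3 after surgery. The wild-type libraries of those 3 challenges held 7 to 30, 0 to 10 and 1 to 5 counts. A gene total carries no exon information and is no check of genotype here, and the word labelled is kept throughout.

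Library totals were 8963187 to 15196537 counts in the diet experiment, 2661699 to 6364414 in the toxin experiment and 2450358 to 6914274 in the surgery experiment. The 11 hepatocyte markers with values, among them the plasma protein genes Alb and Ttr, each had counts in every group and summed to 58162 to 160582 CPM (counts scaled to a common library size) per library. One library stood apart within its group. The day 3 wild-type liver numbered 12 held 172 CPM over 49 other keratin genes, against 2.32 to 3.22 CPM in the other 4 livers of its group. Its leading genes in that list were Krt13 at 80.0 CPM and Krt4 at 71.1 CPM, both keratins of stratified mucosa. Liver 12 is given separately wherever a result rests on it.

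Keratins are intermediate filament proteins that assemble as pairs of a type I and a type II chain. Hepatocytes normally make only the pair of KRT8 (type II) and KRT18 (type I), whereas the cells lining bile ducts, cholangiocytes, add KRT7 and KRT19. In a ductular reaction, cells with biliary features multiply or appear around the portal tracts of an injured liver, and KRT7, KRT19, EPCAM and SOX9 are the usual markers of it. In whole-liver RNA, a change in the number of cells of a type and a change in RNA per cell cannot be told apart.

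The first stretches of sequence shown are the promoters of the Krt8 and Krt18 genes, because these 2 partners were the most abundant members and were called in wild-type livers under all 3 challenges. The genes are neighbours on mouse chromosome 15 and are transcribed away from each other, Krt8 (ENSMUSG00000049382) on the minus strand at chr15:101996698-102004482 and Krt18 (ENSMUSG00000023043) on the plus strand at chr15:102028180-102032027 of GRCm38. Each sequence runs 5′ to 3′ from 250 bases before to 30 bases after the RefSeq transcription start (GRCm38.p6), at chr15:102004313-102004592 on the minus strand for Krt8 and chr15:102027966-102028245 on the plus strand for Krt18. Sprr1a (ENSMUSG00000050359, minus strand, chr3:92483952-92485895) is shown beside them as the one of the pair of genes chosen for their diet response that had a RefSeq promoter entry, with the matching stretch at chr3:92485852-92486131 on the minus strand. Capitals mark every match to a searched motif.
Krt8: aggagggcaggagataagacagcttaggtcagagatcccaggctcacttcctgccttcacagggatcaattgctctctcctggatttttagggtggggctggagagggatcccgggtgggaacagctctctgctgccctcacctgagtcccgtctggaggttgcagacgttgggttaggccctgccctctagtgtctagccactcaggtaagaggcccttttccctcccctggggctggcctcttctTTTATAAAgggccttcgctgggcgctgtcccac
Krt18: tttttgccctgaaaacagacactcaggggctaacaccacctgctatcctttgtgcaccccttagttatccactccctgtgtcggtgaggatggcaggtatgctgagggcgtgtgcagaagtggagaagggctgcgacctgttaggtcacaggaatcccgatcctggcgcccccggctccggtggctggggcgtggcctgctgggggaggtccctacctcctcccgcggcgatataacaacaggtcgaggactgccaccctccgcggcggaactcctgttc
Sprr1a: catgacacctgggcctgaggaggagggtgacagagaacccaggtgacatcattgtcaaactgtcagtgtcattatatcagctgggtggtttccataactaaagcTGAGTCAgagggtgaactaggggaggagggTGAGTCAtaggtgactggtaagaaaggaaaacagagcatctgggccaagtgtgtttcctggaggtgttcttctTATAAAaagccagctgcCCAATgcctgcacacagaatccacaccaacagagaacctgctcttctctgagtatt
Each motif was searched on both strands. The letters of the AP-1 motif were TGANTCA and those of the Sp1 motif were GGGCGG. The TATA box was searched as TATAAA and the CCAAT box as CCAAT. The letters of the TEAD motif were GGAATG, those of the ETS motif were CCGGAAG and those of the FOXA motif were TGTTTAC. In the Sprr1a stretch, TGANTCA matched 146 and 116 bases before the start, TATAAA 43 bases before it and CCAAT 26 bases before it. In the Krt8 stretch, 2 overlapping matches to TATAAA, on opposite strands, began 3 and 1 bases before the start. None of the 7 motifs matched in the Krt18 stretch. Among 27025 RefSeq promoter windows of 300 bases, 7.93% held the AP-1 letters, 14.2% the TATA letters and 37.9% the CCAAT letters. Among the 7 members with a promoter window, Cldn4 was the other one with AP-1 letters and held 2 matches. Krt19, Sox9 and Ly6d had no window and were not searched. These matches describe letters in a window and do not show binding.

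Levels of different genes are compared here as mean CPM per kilobase of transcript. On the low fat diet Krt18 stood at 108 and Krt8 at 94.5 CPM per kilobase. The other 8 genes lay between 0.107 for Cldn4 and 2.99 for Ly6d, with Krt23 at 1.10, Sox9 at 0.773, Krt19 at 0.679, Epcam at 0.529, Krt7 at 0.329 and Sprr1a at 0.175. On the Western diet Krt8 reached 221, Krt18 194 and Ly6d 106 CPM per kilobase in wild-type livers. Ly6d there stood at about the level that the Krt8 and Krt18 pair had in control livers, while Krt23 stood at 2.41 and Sprr1a at 8.41 CPM per kilobase. The duct markers were therefore measured from few reads, and their estimates are the less precise ones.

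**Figure D1:**
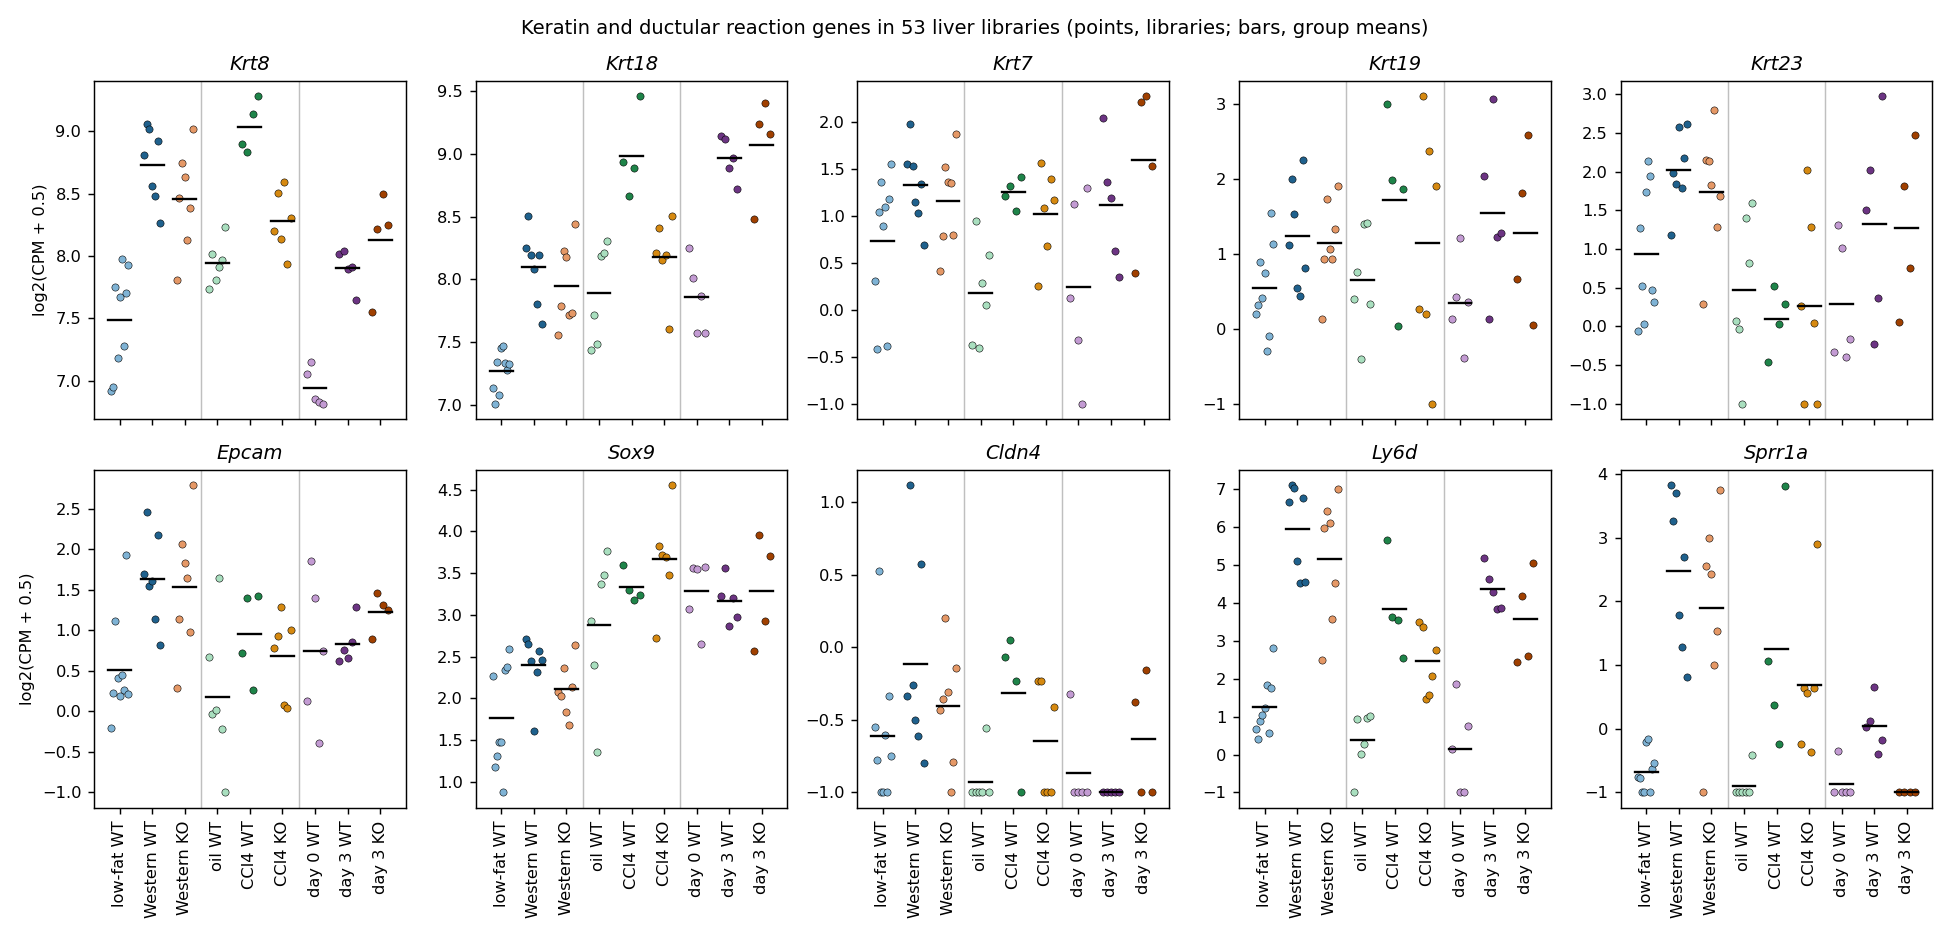
Levels of the 10 genes in each of the 53 livers, in 9 groups, drawn as log2(CPM + 0.5); points are single libraries, bars are group means, WT is wild type and KO is labelled knockout. Krt8 and Krt18 lie far above the other genes in every group, and Ly6d moves from 0.836 to 6.47 CPM on the low fat diet to 22.4 to 137 CPM on the Western diet in wild-type livers.

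Krt8 and Krt18, the keratin pair of hepatocytes, rose in wild-type livers under all 3 challenges, by 1.80- to 2.34-fold. Krt8 on the low fat diet ranged from 121 to 251 CPM with a median of 204 CPM. On the Western diet it ranged from 307 to 533 CPM with a median of 449 CPM in wild-type livers. Every wild-type liver on the Western diet was above every low fat liver. The means were 185 ± 50.1 CPM (SD, n = 9) and 432 ± 86.5 CPM (SD, n = 7), a log2 fold change of 1.22 with a standard error of 0.17 (adjusted p = 1.41e-05, edgeR's quasi-likelihood F-test, adjusted by the Benjamini-Hochberg method over all genes tested). Krt18 ranged from 128 to 177 CPM around a median of 160 CPM on the low fat diet, and from 200 to 364 CPM around a median of 293 CPM on the Western diet. These groups did not overlap either, and the log2 fold change was 0.85 with a standard error of 0.12 (adjusted p = 2.02e-05, edgeR). Both sizes differed by i5 index, the second barcode of a library. The Krt8 median went from 134 to 518 CPM within index D501 and from 208 to 367 CPM within D502. For Krt18 it went from 137 to 304 CPM within D501 and from 161 to 247 CPM within D502. The part of the index in these sizes was not tested.

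After CCl4, Krt8 stood at 478, 457, 562 and 622 CPM in the 4 wild-type livers, against 212 to 301 CPM with a median of 245 CPM after olive oil. All treated wild-type livers were above all olive oil livers (log2 fold change 1.10, SE 0.16, adjusted p = 0.000463, edgeR). Krt18 stood at 490, 405, 474 and 703.5 CPM in those 4 livers, against 173 to 315 CPM with a median of 251 CPM after olive oil. Again the groups did not overlap (log2 fold change 1.09, SE 0.22, adjusted p = 0.00349, edgeR). Livers 4, 5 and 7 carried i5 index D503, which no olive oil liver carried, and liver 34 carried D505. Index and treatment can thus be told apart only in part. After olive oil Krt18 stood at 173, 210 and 179 CPM in libraries of D504 and at 291, 296 and 315 CPM in those of D505. The highest value of both keratins belonged to liver 34, which had the lowest sum of 8 mitosis markers in its group, 22.5 CPM against 237 to 651 CPM in the other 3. It also had the lowest hepatocyte marker sum, 58162 CPM. Without it both keratins remained called, at log2 fold changes of 1.01 and 0.90.

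After partial hepatectomy Krt8 went from 132, 141, 115, 113 and 112 CPM on day 0 to 259, 263, 238, 241 and 200 CPM on day 3 in wild-type livers. Krt18 went from 304, 257, 190, 233 and 190 CPM to 566, 554, 474, 499 and 420 CPM. For both keratins the 5 livers of day 3 were all above the 5 of day 0. The log2 fold changes were 0.97 for Krt8 (SE 0.14, adjusted p = 4.2e-05, edgeR) and 1.09 for Krt18 (SE 0.16, adjusted p = 4.58e-05, edgeR). All day 3 libraries carried one i5 index and the day 0 libraries carried others, so index and day cannot be told apart.

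Markers of hepatocytes, the cells that make this keratin pair, moved as well. In wild-type livers on the Western diet 1 of 11 was called higher and 9 were called lower, with a median log2 change of -0.48. Their sum was 95722 to 130210 CPM on the low fat diet and 63227 to 93900 CPM on the Western diet, 2 ranges that did not overlap. After CCl4 0 of 11 were called higher and 3 lower, and the sum was 106804 to 142842 CPM after olive oil and 58162 to 118994 CPM after CCl4. After surgery 2 of 11 were called higher and 4 lower, and the sum went from 86896 to 107791 CPM on day 0 to 129912 to 150253 CPM on day 3. The part of these markers in the keratin values was not tested.

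**Figure D2:**
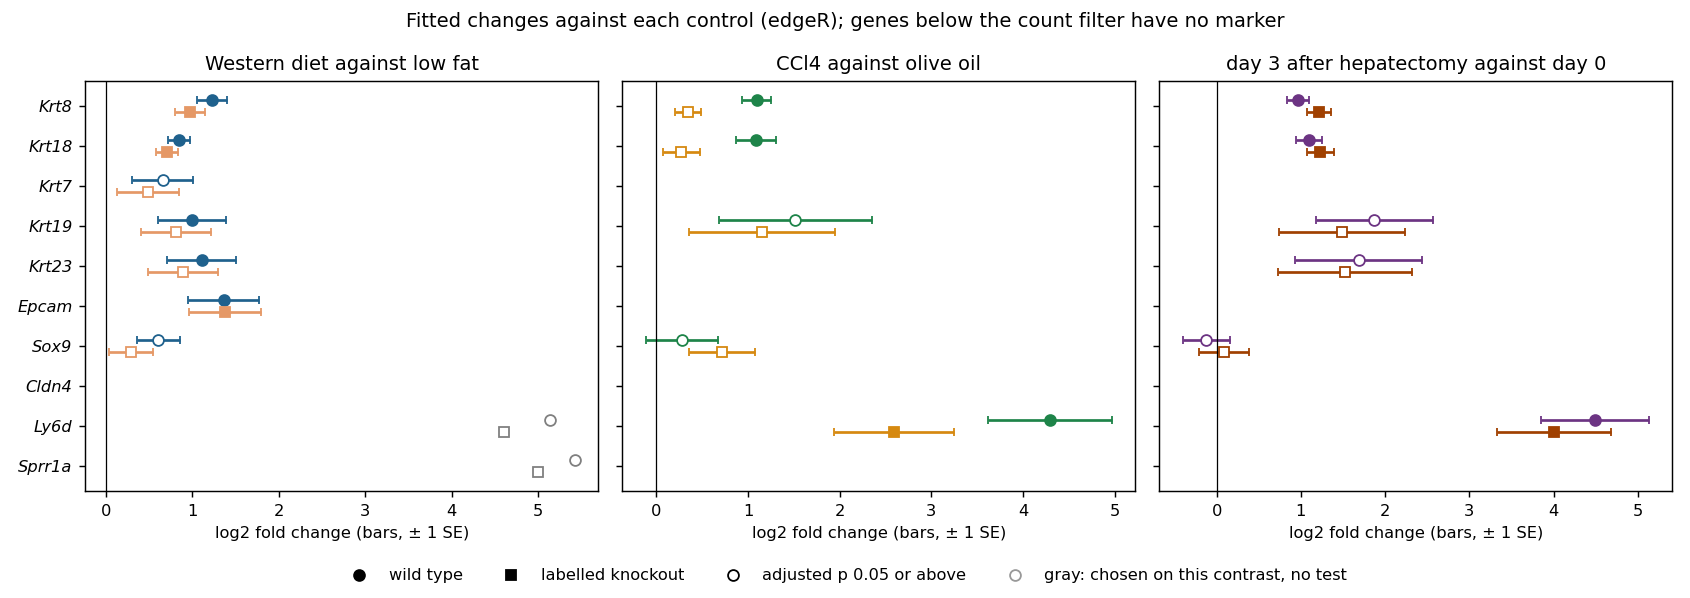
Fitted log2 fold changes against each control, with bars of 1 standard error to either side; circles are wild type, squares are labelled knockout, filled marks had an adjusted p under 0.05, gray marks are descriptions with no test, and genes that failed the count filter have no mark. In wild-type livers Krt8 and Krt18 lie between 0.85 and 1.22 in all 3 challenges, and Ly6d lies at 5.14, 4.29 and 4.49.

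The sizes of the keratin responses were compared across challenges in 1 model of all 53 libraries. For Krt8 the Western diet response exceeded that to CCl4 by 0.14 and that to surgery by 0.26 on the log2 scale, and the CCl4 response exceeded that to surgery by 0.12. For Krt18 the same 3 differences were -0.22, -0.24 and -0.02. None of the members passed the adjusted threshold in any of the 3 comparisons of responses (edgeR's quasi-likelihood F-test, 7, 7 and 9 members tested and 0 called, also 0 with limma voom), where 16.1%, 3.53% and 6.09% of the 12646 genes tested were called for Western diet minus CCl4, Western diet minus surgery and CCl4 minus surgery. Only Krt23 had an unadjusted p under 0.05, in 2 of the 3 comparisons. Its Western diet response exceeded its CCl4 response by 2.00 (SE 0.99, adjusted p = 0.164, edgeR), and its CCl4 response was below its surgery response by a log2 difference of -2.59 (SE 1.19, adjusted p = 0.179, edgeR). Krt23 failed the count filter in the toxin table alone, where its CCl4 response rests on 14 counts against 30 after olive oil. These comparisons combine tables counted on different gene annotations, each response being taken within its own table.

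The balance within the pair differed between experiments. Per kilobase, Krt8 was 0.867 ± 0.170 (SD, n = 9) times Krt18 on the low fat diet and 1.14 ± 0.0930 (SD, n = 7) times Krt18 in Western diet wild-type livers. The log2 ratio was higher by 0.42 (SE 0.11) on the Western diet, with overlapping groups (two-sided exact permutation p = 0.00323, Benjamini-Hochberg adjusted p = 0.00970 over the 3 ratios tested). After CCl4 the ratio was 0.766 against 0.775 after olive oil (exact permutation p = 0.990), and after surgery it was 0.351 against 0.391 on day 0 (exact permutation p = 0.151, adjusted p = 0.226). The ratio was chosen for testing after its values were seen. An antisense gene, Gm36026, overlaps Krt8 exons, and whether counting used strand is not given in the sources used here. The lower ratios in the surgery table cannot be told apart from its different annotation.

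**Figure D3:**
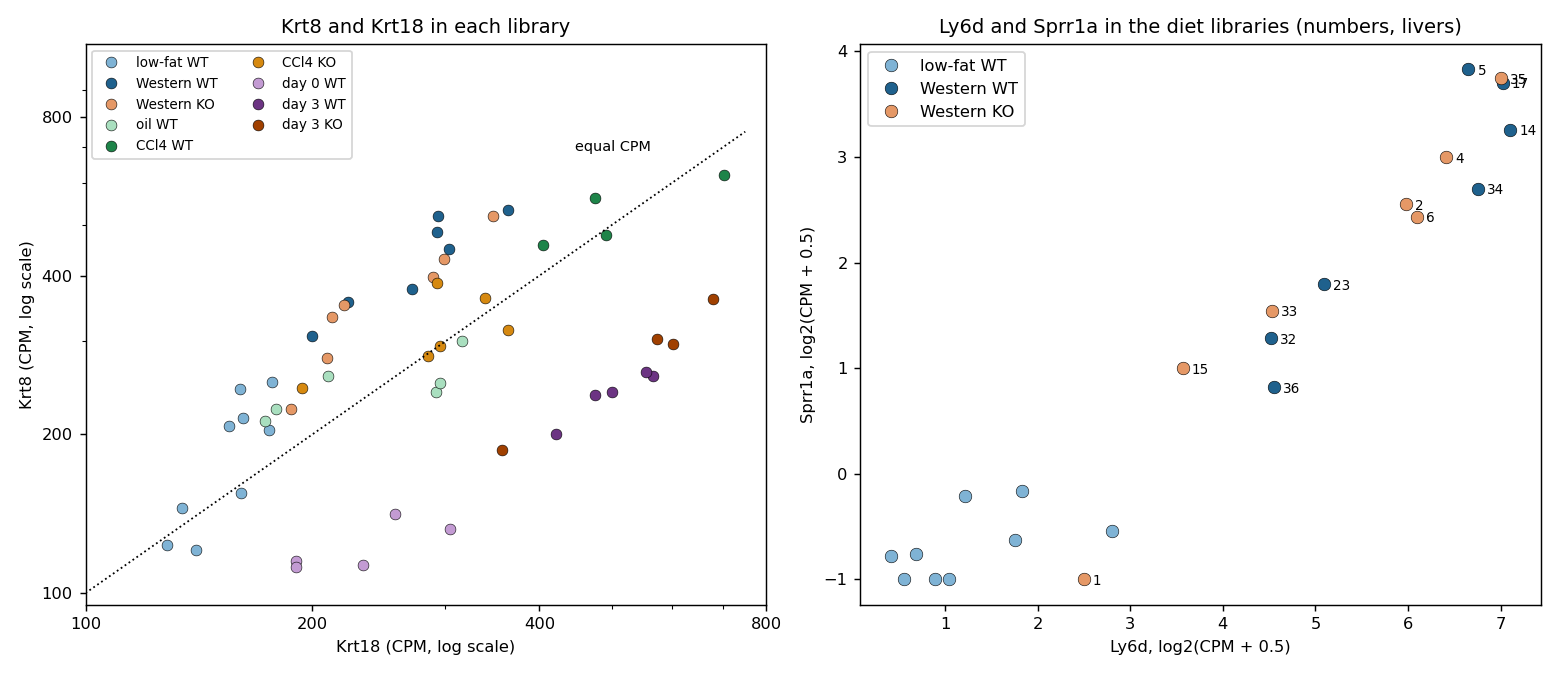
Left, Krt8 against Krt18 in each of the 53 libraries, in CPM on log axes, with a dotted line where both are equal; right, Sprr1a against Ly6d in the 23 diet libraries as log2(CPM + 0.5), with liver numbers beside the Western diet points. The surgery libraries lie below the dotted line and the Western diet ones above it. Western diet livers with more Ly6d tend to have more Sprr1a, from liver 1 at 5.15 CPM of Ly6d and 0 of Sprr1a upward. The order differs at the top, where liver 14 has the most Ly6d (137 CPM, Sprr1a 9.06 CPM) and liver 5 the most Sprr1a (13.7 CPM, Ly6d 100 CPM).

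Livers labelled knockout showed no difference from challenged wild-type livers that edgeR called in either keratin. On the Western diet the log2 difference, labelled knockout minus wild type, was -0.25 for Krt8 (adjusted p = 0.823, edgeR) and -0.14 for Krt18 (adjusted p = 0.836, edgeR). Of the 7 members tested that were not chosen for their diet response, 0 were called in that contrast by edgeR, 0 had an unadjusted p under 0.05, and limma voom and DESeq2 also called 0. The share called among all 13005 genes was 0.0154%. After CCl4 the livers labelled knockout had Krt8 at 245 to 387 CPM with a median of 305 CPM, below all 4 wild-type values. Krt18 there ranged from 194 to 363 CPM around a median of 294 CPM and was also below all 4 wild-type values. The log2 differences were -0.75 for Krt8 (unadjusted p = 0.000188, adjusted p = 0.589, edgeR) and -0.81 for Krt18 (unadjusted p = 0.00188, adjusted p = 0.654, edgeR). With DESeq2 Krt8 was called in that contrast, at -0.75 with an adjusted p of 0.00329. Of 5 members tested by edgeR, 0 were called and 3 had an unadjusted p under 0.05, and 0.00857% of 11663 genes were called. On day 3 after surgery the differences were 0.25 for Krt8 (adjusted p = 0.627, edgeR) and 0.13 for Krt18 (adjusted p = 0.869, edgeR). In that contrast 0 of 6 members were called by edgeR, limma voom or DESeq2, 0 had an unadjusted p under 0.05, and 0.154% of 11026 genes were called.

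Against the shared controls, the livers labelled knockout had Krt8 higher by 0.97 on the log2 scale on the Western diet (adjusted p = 0.000374, edgeR) and by 1.22 on day 3 after surgery (adjusted p = 8e-06, edgeR). Krt18 was higher by 0.70 (adjusted p = 0.00036, edgeR) and by 1.23 (adjusted p = 2.89e-05, edgeR). After CCl4 neither was called, at 0.34 for Krt8 (adjusted p = 0.149, edgeR) and 0.27 for Krt18 (adjusted p = 0.440, edgeR). The shares of all genes called higher in these contrasts were 15.1% on the Western diet, 7.23% after surgery and 5.91% after CCl4. These contrasts use the same control livers as the wild-type ones, and the direct differences between labelled knockout and wild type are the ones given above.

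The duct markers Epcam and Krt19, and the keratin Krt23, were higher on the Western diet in wild-type livers, at low levels and with overlapping groups. Epcam, an adhesion molecule of biliary and progenitor cells, ranged from 0.368 to 3.31 CPM around a median of 0.705 CPM on the low fat diet. On the Western diet it ranged from 1.26 to 5.01 CPM around a median of 2.55 CPM, so the highest low fat liver stood within the Western diet range. Its log2 fold change was 1.36 (SE 0.41, adjusted p = 0.0116, edgeR). Krt23, a type I keratin, ranged from 0.460 to 3.92 CPM around a median of 0.937 CPM on the low fat diet and from 1.76 to 5.65 CPM around a median of 3.46 CPM on the Western diet. Its log2 fold change was 1.11 (SE 0.40, adjusted p = 0.0302, edgeR). Krt19, the type I keratin of bile ducts, ranged from 0.313 to 2.43 CPM around a median of 0.834 CPM on the low fat diet and from 0.852 to 4.28 CPM around a median of 1.66 CPM on the Western diet. Its log2 fold change was 1.00 (SE 0.39, adjusted p = 0.0475, edgeR).

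Krt7, the type II keratin of bile ducts, Sox9, a transcription factor of duct cells, and Cldn4, a tight junction claudin, were not called on the Western diet. Krt7 ranged from 0.251 to 2.44 CPM around a median of 1.56 CPM on the low fat diet and from 1.12 to 3.46 CPM around a median of 2.04 CPM on the Western diet (log2 fold change 0.65, SE 0.35, adjusted p = 0.148, edgeR). Sox9 ranged from 1.33 to 5.53 CPM around a median of 2.29 CPM and from 2.55 to 6.07 CPM around a median of 4.98 CPM (log2 fold change 0.61, SE 0.25, adjusted p = 0.0602, edgeR). Cldn4 did not pass the filter on low counts, with means of 0.194 and 0.532 CPM (two-sided exact permutation p = 0.122). An antisense gene, Gm671, overlaps Krt7 exons, and its reads cannot be told apart from those of Krt7 if strand was not used.

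Of the 8 members not chosen for their diet response, 5 were thus called higher on the Western diet, 2 were tested and not called and 1 failed the filter, against 20.4% of 13005 genes called higher. Leaving out 1 liver at a time removed the Krt19 call in 11 of 16 cases and the Krt23 call in 7 of 16. The adjusted p then reached 0.159 for Krt19, without Western diet liver 34, and 0.0666 for Krt23, without Western diet liver 23. Krt19 lost its call without low fat livers 7, 12, 18, 19, 20, 21 or 25 and Western diet livers 5, 14, 17 or 34, and Krt23 without low fat livers 7, 18, 19, 26 or 27 and Western diet livers 23 or 36. Sox9 was called without low fat liver 25, 26 or 27 or Western diet liver 23 (adjusted p = 0.0210 to 0.0442, edgeR). The number of called members ranged from 3 to 5. Among libraries of i5 index D502 alone (5 low fat and 4 Western diet wild-type livers), 2 of the 8 were called, Krt8 and Krt18.

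In livers labelled knockout on the Western diet, Epcam ranged from 0.718 to 6.42 CPM around a median of 2.63 CPM, higher than on the low fat diet by 1.37 on the log2 scale (adjusted p = 0.0179, edgeR). Without labelled knockout liver 35 the Epcam call was lost (1.02, adjusted p = 0.0857, edgeR). Krt23 (0.89, adjusted p = 0.111, edgeR), Krt19 (0.81, adjusted p = 0.145), Krt7 (0.49, adjusted p = 0.341) and Sox9 (0.29, adjusted p = 0.446) were not called against the low fat diet, although Krt23 was called without labelled knockout liver 1 (adjusted p = 0.0447) or low fat liver 21 (adjusted p = 0.0418). The direct log2 differences between labelled knockout and wild type on the Western diet lay between -0.32 and 0.01 for these 5 genes. Liver 1 of the labelled knockout group had the lowest Ly6d, Krt8 and Krt18 of its group, at 5.15, 224 and 187 CPM, and Sprr1a at 0. Its sums of macrophage and stellate cell markers, 188 and 83.9 CPM, lay within the low fat ranges of 125 to 335 and 63.5 to 124 CPM.

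After CCl4 and after surgery, the duct markers other than Sox9 were near the limit of what these shallower libraries measure. A gene with no count could still be at the level of 3 counts, which is 0.726 to 1.19 CPM in the shallowest library of each toxin and surgery group, and such limits cover counting error only. Krt19 stood at 7.53, 3.46, 0.525 and 3.15 CPM in the 4 CCl4 wild-type livers, against 0.257 to 2.16 CPM with a median of 1.01 CPM after olive oil (log2 fold change 1.52, adjusted p = 0.215, edgeR). One treated liver lay within the olive oil range. Sox9 stood at 11.6, 9.33, 8.57 and 8.96 CPM, inside the olive oil range of 2.06 to 13.1 CPM (log2 fold change 0.28, adjusted p = 0.662, edgeR).

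The other duct markers and Krt23 failed the filter in the toxin table. Krt7 stood at 1.83, 2.00, 1.57 and 2.18 CPM after CCl4 in wild-type livers, above the olive oil range of 0.257 to 1.43 CPM (two-sided exact permutation p = 0.0143). Cldn4 was at 0.457, 0.533, 0.350 and 0 CPM, against 0 in 5 olive oil livers and 0.180 CPM in the other (exact permutation p = 0.0333). Epcam stood at 1.14, 2.13, 0.700 and 2.18 CPM against 0 to 2.63 CPM (exact permutation p = 0.152), and Krt23 at 0.228, 0.933, 0.525 and 0.726 CPM against 0 to 2.52 CPM (exact permutation p = 0.495). In all, 30 exact tests were made for members that failed a filter, and after Benjamini-Hochberg adjustment over them the smallest p was 0.0649, so none passed.

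Of the 10 members, Krt8, Krt18 and Ly6d were called higher after CCl4 in wild-type livers, 2 were tested and not called and 5 failed the filter, where 11.1% of 11663 genes were called higher. After partial hepatectomy the same 3 genes were called in wild-type livers, 3 were tested and not called and 4 failed the filter, where 9.87% of 11026 genes were called higher. In both experiments Ly6d passed the filter through the challenged livers, where it was high. Its control libraries held 0 to 8 counts after olive oil and 0 to 11 on day 0.

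On day 3 after surgery Krt19 stood at 3.63, 0.593, 7.87, 1.84 and 1.93 CPM in wild-type livers, against 0.597, 0.847, 1.82, 0.262 and 0.784 CPM on day 0. Of these 5 livers, 4 were above the day 0 range, 2 of them by a small margin, and the log2 fold change was 1.87 (adjusted p = 0.0673, edgeR). The 2 highest were livers 14 and 12, which also had the highest sums of 8 mesothelial markers in the group, 32.5 and 38.7 CPM against 6.96 to 14.2 CPM in the other 3. Among the labelled knockout livers of day 3, liver 19 had both the highest Krt19, 5.53 CPM, and the highest mesothelial sum, 47.0 CPM. On day 0 that sum was 1.19 to 2.35 CPM. The titles of day 3 livers 12, 14 and 19 carry a letter N whose meaning is not given. That of day 3 liver 13, with the lowest Krt19 of its group, carries it too. Mesothelium, the covering of the liver surface, also makes keratin 19, and its part in the Krt19 values was not tested. Without day 3 liver 12 or 14 Krt19 failed the filter, and it was called without day 3 liver 13 (adjusted p = 0.0316, edgeR) or day 0 liver 14 (adjusted p = 0.0489, edgeR).

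Krt23 stood at 2.34, 3.56, 0.358, 0.788 and 7.35 CPM on day 3 in wild-type livers, overlapping the day 0 values of 0.298, 1.98, 1.52, 0.262 and 0.392 CPM (log2 fold change 1.68, adjusted p = 0.139, edgeR). Sox9 stood at 8.83, 11.3, 6.79, 8.67 and 7.35 CPM against 7.90, 11.3, 11.3, 5.77 and 11.4 CPM on day 0 (log2 fold change -0.12, adjusted p = 0.818, edgeR). The remaining duct markers were tested exactly. Krt7 stood at 3.63, 2.08, 1.79, 1.05 and 0.773 CPM against 0.597, 1.69, 0.304, 0 and 1.96 CPM (exact permutation p = 0.135), and Epcam at 1.04, 1.19, 1.07, 1.31 and 1.93 CPM against 0.597, 3.11, 2.13, 0.262 and 1.18 CPM (exact permutation p = 0.881). Cldn4 had no counts in the 5 wild-type livers of day 3 and 1 of 5 day 0 livers had any, at 0.298 CPM.

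**Figure D4:**
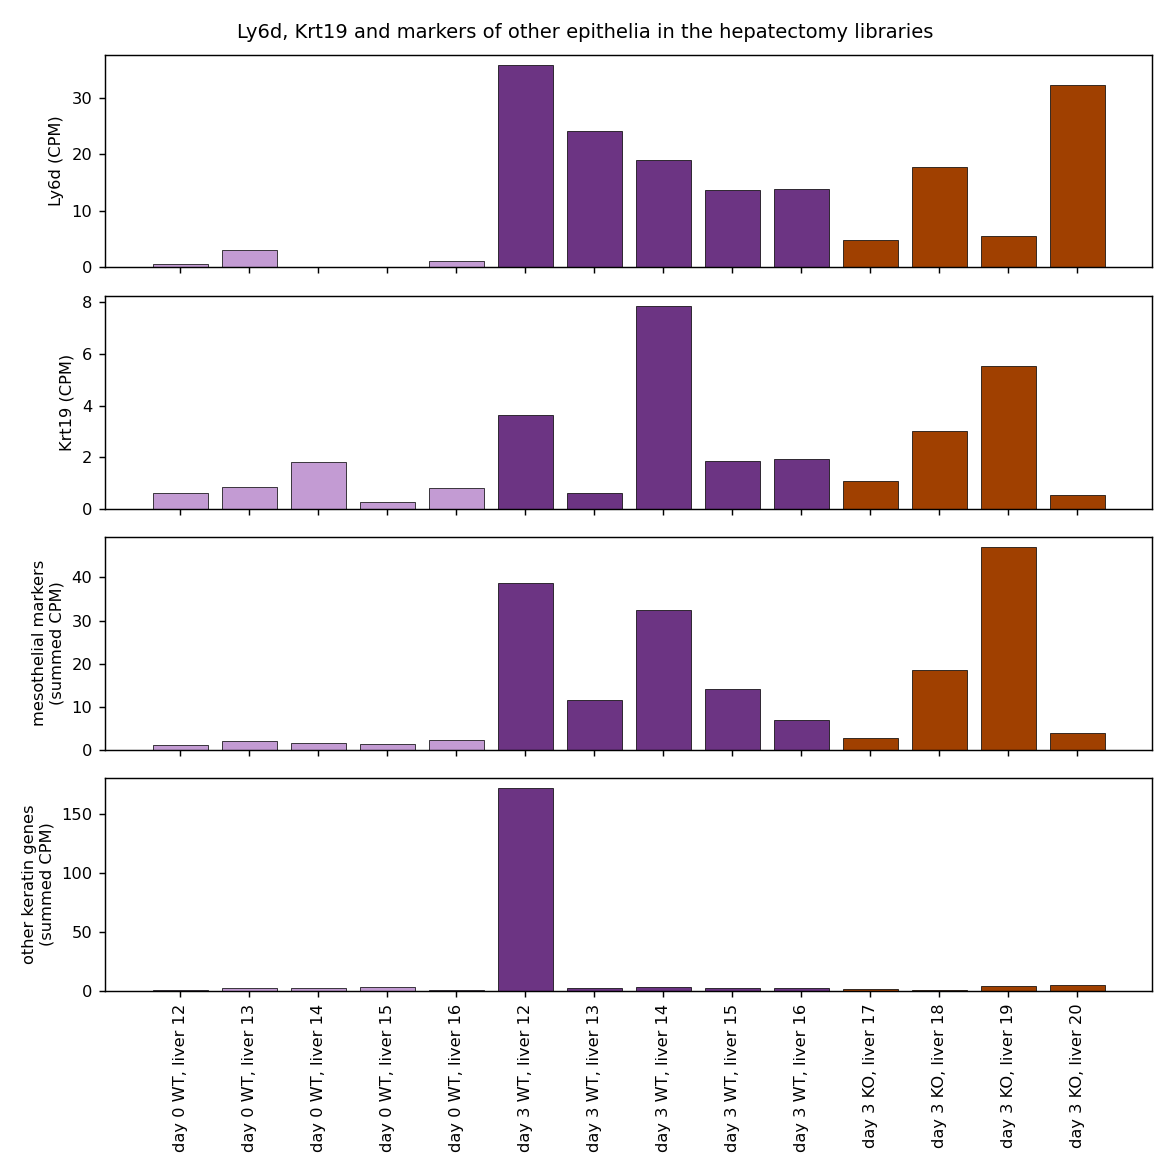
Ly6d, Krt19, the sum of 8 mesothelial markers and the sum of 49 other keratin genes in each liver of the surgery experiment, in CPM on linear axes from 0; each bar is 1 library. Livers 12 and 14 and the labelled knockout liver 19 are high in both Krt19 and mesothelial markers, and liver 12 stands alone in the other keratins at 172 CPM.

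Ly6d and Sprr1a were named for the size of their diet response. Ly6d encodes a small membrane-anchored protein of the Ly6 family that is best known from B lymphocyte progenitors and stratified epithelium. On the low fat diet it ranged from 0.836 to 6.47 CPM around a median of 1.56 CPM, and on the Western diet from 22.4 to 137 CPM around a median of 100 CPM in wild-type livers. The lowest Western diet liver was above the highest low fat liver, and the pooled ratio was 36.2. The size differed by i5 index. The 3 Western diet wild-type livers of index D501 held 100 to 137 CPM and the 4 of index D502 held 22.4 to 108 CPM, giving fitted log2 fold changes of 6.65 within D501 and 3.95 within D502. Sprr1a, a small proline-rich protein that is a building block of the cornified envelope of skin, ranged from 0 to 0.392 CPM on the low fat diet and from 1.26 to 13.7 CPM around a median of 6.00 CPM on the Western diet. Its log2 fold changes were 7.64 within D501 and 3.75 within D502. The index was the only technical grouping the labels gave, and its part in these sizes was not tested.

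The 7 labelled knockout livers on the Western diet held Ly6d at 5.15 to 128 CPM around a median of 62.6 CPM and Sprr1a at 0 to 12.9 CPM around a median of 4.90 CPM. Both ranges overlapped those of the wild-type livers. The log2 differences, labelled knockout minus wild type, were -0.53 for Ly6d and -0.43 for Sprr1a, given with no test because both genes were chosen on Western diet values.

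The toxin and surgery experiments gave measurements of these 2 genes that the choice did not use. After CCl4, Ly6d stood at 49.5, 11.7, 11.2 and 5.33 CPM in wild-type livers, against 0 to 1.51 CPM with a median of 1.07 CPM after olive oil. The groups did not overlap, and 1 liver, number 4, was far above the other 3. The log2 fold change was 4.29 (SE 0.68, adjusted p = 0.000816, edgeR), and without liver 4 it was 3.27 (adjusted p = 0.00292, edgeR). In the 6 labelled knockout livers Ly6d ranged from 2.27 to 10.7 CPM around a median of 4.99 CPM, all above the olive oil range. It was called against olive oil at a log2 fold change of 2.59 (SE 0.66, adjusted p = 0.0194, edgeR), the 1 called member of that contrast. This call was lost with index as a covariate (1.88, adjusted p = 0.0965), with limma voom (adjusted p = 0.0544) and without labelled knockout liver 2 (adjusted p = 0.0532). The difference between labelled knockout and wild type after CCl4 was -1.70 (unadjusted p = 0.0102, adjusted p = 0.711, edgeR).

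After surgery, Ly6d went from 0.597, 3.11, 0, 0 and 1.18 CPM on day 0 to 35.8, 24.0, 19.0, 13.7 and 13.9 CPM on day 3 in wild-type livers. Every day 3 liver was above every day 0 liver, and the log2 fold change was 4.49 (SE 0.64, adjusted p = 4.91e-05, edgeR). The highest value belonged to liver 12, in which squamous epithelium markers summed to 15.3 CPM against 1.07 to 1.78 CPM in the other 4. Without liver 12 the log2 fold change was 4.21 (adjusted p = 0.000162, edgeR), and without livers 12 and 14 it was 4.18 (adjusted p = 0.000518, edgeR). The 4 labelled knockout livers held 4.87, 17.7, 5.53 and 32.3 CPM, a log2 fold change of 4.01 against day 0 (adjusted p = 0.000385, edgeR) and a difference of -0.48 from wild type (adjusted p = 0.832, edgeR). The CCl4 and surgery responses of Ly6d in wild-type livers differed by -0.24 on the log2 scale (SE 1.53, adjusted p = 0.955, edgeR).

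Sprr1a failed the filter in both experiments. After CCl4 it stood at 1.60, 0.799, 0.350 and 13.6 CPM in wild-type livers, against 0 in 5 olive oil livers and 0.252 CPM (1 count) in the other. All treated wild-type livers were above all olive oil livers (two-sided exact permutation p = 0.00476, the smallest that 4 livers against 6 can give, not passing adjustment over the 30 tests). The ratio of pooled CPM was 83.1, with a counting interval of 14.4 to 3329 from 71 counts against 1. Liver 34 held 56 of those counts, and without it the ratio was 21.7, with a counting interval of 3.34 to 913 from 15 counts against 1. Both intervals cover counting error only and not the spread between livers. The 6 labelled knockout livers held 0.276 to 7.01 CPM around a median of 1.01 CPM, also all above the olive oil livers (exact permutation p = 0.00216). The highest values were those of wild-type liver 34 and labelled knockout liver 35. These 2 treated livers had the lowest mitosis marker sums, 22.5 and 23.3 CPM. They were also the only treated livers of i5 index D505, so index and mitosis level cannot be told apart here. Olive oil livers 28, 29 and 30 of that index held 0, 0 and 0.252 CPM of Sprr1a. On day 3 after surgery Sprr1a stood at 0.519, 0.593, 1.07, 0.263 and 0.387 CPM in wild-type livers, from 9 counts in all, against 1 day 0 liver at 0.282 CPM and 4 at 0 (exact permutation p = 0.0159). It had no counts in the 4 labelled knockout livers (exact permutation p = 0.00794 against wild type, the smallest these group sizes can give), in which 3 counts would be 1.19 CPM in the shallowest library.

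Markers of other cell types that make Ly6d or Sprr1a were read beside them. B cell markers summed to 17.3 to 169 CPM on the low fat diet and 31.7 to 64.6 CPM in wild-type livers on the Western diet, and to 4.63 to 18.9 CPM after olive oil and 2.90 to 7.46 CPM after CCl4. Day 0 and day 3 wild-type sums were 8.19 to 11.9 and 5.52 to 12.5 CPM. In wild-type livers 0 of 5, 0 of 1 and 0 of 1 tested B cell markers were called on the Western diet, after CCl4 and after surgery by edgeR, limma voom or DESeq2, and 0 had an unadjusted edgeR p under 0.05. Squamous epithelium markers summed to 0.455 to 1.59 CPM on the low fat diet and 0.736 to 1.66 CPM on the Western diet in wild-type livers. Of 8 such markers, 5 and 4 had no counts in those groups. Of 21 other cornified envelope genes, 17 had no counts in either of these diet groups, among them Sprr1b, a gene of the same family, and 1 passed the filter. That gene, Tgm1, a transglutaminase, fell by a log2 change of -0.57 on the Western diet (adjusted p = 0.0196, edgeR) and rose by 1.33 after CCl4 (adjusted p = 0.0115, edgeR).

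Other Ly6 family genes were read beside Ly6d. On the Western diet 4 of 5 tested were higher and none lower, where 20.4% of all genes were called higher, with Ly6e at 0.77, Ly6a at 0.99 and Lynx1 at 0.93 on the log2 scale, and the median of the list was 0.93 against -0.02 over all genes tested. After surgery 2 of 4 rose, Lynx1 by 2.38 and Ly6a by 0.91, and Gpihbp1, an endothelial member, fell by 0.69, where 9.87% of all genes were called higher. After CCl4 0 of 4 were called by edgeR although 3 had an unadjusted p under 0.05, 3 were called by limma voom and 1 by DESeq2, where edgeR called 11.1% of all genes higher. The list median there was 0.92 against 0.05 over all genes.

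Other cholangiocyte markers were read beside the members. On the Western diet 13 of 20 tested were higher and none lower in wild-type livers, where 20.4% of all genes were called higher, with a median log2 change of 1.17 against -0.02 over all genes. Spp1, the secreted glycoprotein osteopontin, rose from 45.4 to 236 CPM (2.38), Elf3, an epithelial transcription factor, by 2.17, and Cd24a, a surface glycoprotein, by 1.81. After CCl4 3 of 14 were higher and none lower, Bicc1 by 1.33, Spp1 by 1.92 and Cdh1 by 1.07, where 11.1% of all genes were called higher, with a median of 0.30 against 0.05 over all genes. After surgery 2 of 13 were higher and none lower, Slc10a2, the bile acid transporter of duct cells, by 1.47 and Spp1 by 0.63, where 9.87% of all genes were called higher, with a median of 0.07 against -0.00 over all genes. The diet libraries were deeper and their groups larger, and a difference between challenges was not tested for this list. Macrophage markers (8 of 8) and stellate cell markers (6 of 8) were also called higher on the Western diet, and their part in the values of Spp1 and Cd24a was not tested. All 8 mitosis markers were called higher under each of the 3 challenges in wild-type livers.

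Genes of the structures that keratins attach to were read in the same contrasts, in which 20.4%, 11.1% and 9.87% of all genes tested were called higher on the Western diet, after CCl4 and after surgery. Of desmosome and keratin linker genes, 2 of 11 were higher and 1 lower on the Western diet, where Ppl (periplakin, a linker of keratin filaments) rose by 0.76 and Dsg2, a desmosomal cadherin, fell by 0.28. After surgery 3 of 10 were higher and none lower, with Ppl from 12.2 to 59.0 CPM (log2 fold change 2.30, adjusted p = 2.58e-07, edgeR), Plec at 0.62 and Dsc2 at 0.43. After CCl4 0 of 10 were called by edgeR, 2 had an unadjusted p under 0.05, and limma voom and DESeq2 called 1 each. Of tight junction genes, 1 of 14 was higher and 3 were lower on the Western diet, 2 of 13 were higher and 2 lower after CCl4, and 3 of 13 were higher after surgery. F11r, a junctional adhesion molecule, rose by 0.87 after CCl4 and by 0.53 after surgery.

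Genes of the Notch and YAP pathways, which act in bile duct fate, were read against the same shares of 20.4%, 11.1% and 9.87%. Among Notch pathway genes 6 of 13 were higher and 1 lower on the Western diet, with Hey1, a Notch target, at 2.03, Heyl at 0.82 and the ligand Jag1 at 0.65. After CCl4 1 of 11 was higher, Notch2 by 0.49, and after surgery 1 of 10, Heyl by 1.78. Among YAP and TEAD genes 7 of 13 were higher and 1 lower on the Western diet, led by the receptor kinase Axl at 1.58, then Wwtr1 at 0.76 and Ajuba at 1.05. After CCl4 2 of 11 were higher and 1 lower, and after surgery 2 of 11 were higher. In both of those Birc5, which is also a mitosis gene, was the largest of them, at 4.35 and 4.09. Whether these lists differed between challenges was not tested.

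Within groups, the members varied together to different degrees. After the group means were removed, Krt8 and Krt18 had a Pearson r of 0.77 over the 53 libraries, and each had the other as its closest gene among 10706. The closest genes to Sprr1a were Cstb (r = 0.82), Arpc1b (0.82) and Klf6 (0.81), and those to Ly6d were Tmem176b (0.71), Anxa5 (0.71) and Haus8 (0.69). Epcam was closest to Spp1 (0.64), Igfbp7 (0.61) and Bicc1 (0.59), of which Spp1 and Bicc1 are on the cholangiocyte list. Krt19 was closest to Col6a1 (0.65), Crip1 (0.64) and Gramd1b (0.62), and Krt7 to Rpl13 (0.63), Ppic (0.62) and Krt8 (0.62). Krt23 was closest to Ocln (0.58), Sox9 to St5 (0.67) and Cldn4 to Ifi27l2a (0.57). The points of each correlation share library depth and composition, and for the genes of low count much of the variation is counting error. Krt8 and Epcam had an r of 0.37, and Krt8 and Sox9 one of 0.24. Krt23 had an r of 0.03 with Krt7, -0.16 with Krt19, 0.22 with Epcam, 0.15 with Sox9 and -0.27 with Cldn4.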

How the data were processed

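Total RNA of 53 whole livers was made into libraries with an Illumina mRNA kit and sequenced, per the labels' protocols. The submitters' processing notes name TopHat2 2.0.11, HTSeq and the build GRCm38. The values used are the authors' deposited raw counts per gene, in 3 tables of 38293, 38293 and 53379 genes. The surgery table was counted on another annotation, and strandedness is not given in the sources used here. All columns were assigned to samples by name. Gene identifiers were paired with symbols for 36345 of 38293 and 53274 of 53379 rows. Totals were 8963187 to 15196537 counts in the diet, 2661699 to 6364414 in the toxin and 2450358 to 6914274 in the surgery libraries.

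CPM are counts divided by the TMM-normalized library size, which was computed within each experiment. Each experiment was fitted with edgeR 4.0.16 (TMM factors, filterByExpr by group, quasi-likelihood F-test, 3 groups in 1 model), with Benjamini-Hochberg adjustment over all genes tested and calls at an adjusted p under 0.05. A joint fit over the 53 libraries compared wild-type responses. Standard errors given with edgeR were worked back from its test, as the size of the log2 change divided by the square root of F. Members that failed the filter were compared by two-sided exact permutation tests of log2(CPM + 0.5). limma 3.58.1, DESeq2 1.42.0, R 4.3.3, Python 3.11.15, pandas 2.3.3, scipy 1.17.1 and matplotlib 3.10.9 served the alternatives, tables and figures. The fits were tested on simulated data. The members, gene lists and tests were chosen with earlier results of these data known. All 10 members are named, the genes closest to a member are the 3 with the highest within-group correlation, and from each list up to 3 called genes with the smallest adjusted p are named. Each p-value judges a difference between groups against the spread between livers within groups. Promoter windows came from RefSeq (GRCm38.p6) and matched 7 of the 10 members by symbol. Alternatives were another scaling, no filter, limma voom, DESeq2, only the compared groups, the index, the replicate block, another pseudocount, and leaving out single libraries.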

Additional observations from a re-analysis of the deposited data

Results flagged for a closer look

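In 10 of 88 combinations of a member and a group, 1 liver was far above the others, by the gap to its nearest neighbour relative to the group's range. How often low and skewed counts pass this cutoff by chance was not tested, so the 10 are listed as a description. For Ly6d these were CCl4 wild-type liver 4 at 49.5 CPM (next 11.7) and low fat liver 27 at 6.47 CPM (next 3.05). For Sprr1a they were CCl4 wild-type liver 34 at 13.6 CPM (next 1.60) and CCl4 labelled knockout liver 35 at 7.01 CPM (next 1.07). No other CCl4 liver carried their i5 index, D505. The other 2 Sprr1a values came from a single count beside zeros, olive oil liver 30 at 0.252 CPM and day 0 liver 13 at 0.282 CPM. Epcam was highest in low fat liver 26 at 3.31 CPM (next 1.67). Cldn4 was highest in low fat liver 18 at 0.937 CPM (next 0.294), olive oil liver 29 at 0.180 CPM (others 0) and day 0 liver 12 at 0.298 CPM (others 0).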

How the results depend on the processing

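Krt8 and Krt18 kept their calls against the control in wild-type livers under every alternative tried in the 3 experiments, and so did Ly6d after CCl4 and surgery. Other calls moved. Krt19 on the Western diet lost its call without the count filter (0.98, adjusted p = 0.0655, edgeR) and with the 2 compared groups alone (1.00, adjusted p = 0.0546, edgeR). Depth limits the duct markers and Sprr1a, which had few counts. The cause of the changes below was not tested. Tests within an index, leaving out livers 12 and 14 together and the pooled Sprr1a ratio without liver 34 were chosen after seeing the data. In all comparisons below, differences are on the log2 scale.

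Members called on the Western diet against low fat were 2 of 8 within index D502, where 1401 genes were called. For labelled knockout against low fat 1581 genes were called within D501 and 638 within D502. Between labelled knockout and wild type on the Western diet 1 gene was called within D502, where the sign turned for 7 members: Sox9 0.15, Krt19 0.50, Krt7 0.46, Krt18 0.18, Ly6d 0.69, Krt8 0.16 and Sprr1a 1.33. Also in that contrast Epcam turned to -0.11 with limma voom and -0.51 within D501, and Krt23 to 0.00494 with the index as a covariate and 0.38 within D501. Krt23 turned to -0.0146 for labelled knockout against low fat within D502.

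After CCl4 3599 genes were called in wild-type livers against olive oil with the index as a covariate. For labelled knockout against wild type 2 genes were called with limma voom, 18 with DESeq2 (and 1 member, Krt8), 0 within index D503 and 2 without livers 34 and 35. For labelled knockout against olive oil 1845 genes were called with limma voom, 2569 with the index as a covariate (0 members) and 1852 without livers 34 and 35, and 2 members with no filter and with DESeq2. Krt23 turned to -0.16 between labelled knockout and wild type with a pseudocount of 0.1. After surgery, for labelled knockout against wild type, 182 genes were called with no filter, 63 with DESeq2 and 5 without livers 12 and 14, and Krt23 turned to 0.19 with limma voom. For differences of responses, Western diet minus surgery gave 295 called genes with no filter and 1188 with limma voom, and CCl4 minus surgery gave 513 with no filter. With limma voom Krt19 turned to 0.50 (Western diet minus CCl4), Krt23 to 0.0184 (Western diet minus surgery) and Krt7 to -0.11 (CCl4 minus surgery).

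Leaving out each library in turn gave 3 to 5 members called on the Western diet in wild-type livers, and 0 to 1 for labelled knockout after CCl4 against olive oil. Genes called ranged from 1 to 2 for labelled knockout against wild type after CCl4 and from 3 to 40 after surgery, from 282 to 476 for Western diet minus surgery and from 451 to 1178 for CCl4 minus surgery. Differences that changed sign, none of them called, ranged as follows. For labelled knockout against wild type on the Western diet they were Krt19 -0.39 to 0.0737, Krt7 -0.35 to 0.00244 and Epcam -0.34 to 0.22. After CCl4 they were Krt19 -0.97 to 0.24, Krt23 -0.18 to 0.42 and Sprr1a -1.06 to 0.29, and Krt23 against olive oil -0.56 to 0.0480. After surgery they were Sox9 -0.0347 to 0.43 and Krt23 -0.87 to 0.20, and, against day 0, Sox9 -0.16 to 0.31 in labelled knockout and Epcam -0.20 to 0.36 in wild-type livers. For Western diet minus CCl4 they were Krt19 -0.85 to 0.0818 and Epcam -0.29 to 0.93, and for Western diet minus surgery Krt23 -1.12 to 0.0610. For CCl4 minus surgery they were Krt19 -0.98 to 0.24, Krt7 -0.18 to 0.64, Krt18 -0.19 to 0.10 and Ly6d -1.33 to 0.0691.

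Day 0 and day 3 wild-type livers share the numbers 12 to 16, and the labels do not say whether a number marks 1 animal. The titles add a letter N to day 3 wild-type livers 12, 13 and 14 and to labelled knockout liver 19. On day 0 only liver 12 carries it, and its meaning is not given. The correlations of same-numbered livers were -0.044 to 0.106, and 2 of 5 matched best with their own number. With the number as a replicate block 1710 genes and 3 members were called, against 1915 and 3 without it, and no other call of a member changed, although Krt19 then failed the filter. The index could not be fitted as a covariate in the surgery experiment.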
